A study of Labrus bergylta with 24 samples.

Results

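The genes described here make or remove hydrogen peroxide in the intestine of ballan wrasse (Labrus bergylta), a labrid fish that has no stomach. They were chosen by name alone, with letter case ignored and a trailing a or b allowed: the dual oxidases duox1 and duox2, the NADPH oxidase nox1, catalase (cat), the superoxide dismutases sod1, sod2 and sod3, and the glutathione peroxidases gpx1, gpx2 and gpx4. Of these 10 names, 8 were carried by at least 1 gene model, which gave 12 gene models of the 27392 in the table. Gene models are given by the name and identifier of the study's own annotation, in which 2 models can carry 1 name.

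RNA was sequenced from 4 consecutive segments of the intestine of 6 farmed adult fish, which makes 24 libraries with 6 in each segment. Segment 4 is the hind-gut, and segments 3, 2 and 1 lie in front of it in that order, segment 1 being the anterior bulb. Every fish gave all 4 segments, no fish was treated, and all had eaten the same commercial feed. The comparisons run along the gut, and ask how the supply and removal of hydrogen peroxide differ from one segment to the next.

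Dual oxidases and NADPH oxidases sit in the plasma membrane of epithelial and white blood cells and pass electrons from NADPH to oxygen. Dual oxidases release hydrogen peroxide directly and need a maturation partner. NADPH oxidases such as nox1 release superoxide, which superoxide dismutases turn into hydrogen peroxide. Catalase breaks down hydrogen peroxide in peroxisomes, and glutathione peroxidases reduce it, or lipid peroxides, at the cost of glutathione. In the gut of mammals and fish, this chemistry is known from the defence of the mucosal surface against microbes.

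Values are normalized counts, in which the reads of a gene model are scaled by the size factor of their library. From the steps between low values, the libraries held between 7867202 reads (segment 2 of fish 1) and 29650315 reads (segment 4 of fish 5), and the next lowest held 15528490. All 24 libraries correlated best with the mean profile of their own segment in the other fish, over the 1000 gene models that varied most between segments. The weakest correlation with the own segment was that of segment 3 of fish 2, at 0.229, beside 0.169 with segment 4. The segment 2 library of fish 6 was the nearest to a tie, at 0.25 with segment 2 and 0.235 with segment 1. Segment 4 held genes of egg coat and germ cells, a list that was chosen after values were seen. The summed normalized count of these 26 gene models (ZP1 to ZP4, zar1, Ddx4, dazl, dnd, piwil1, GDF9, BMP15, Figla and NOBOX) was 54611 and 95407 in segment 4 of fish 1 and fish 5, 7027 and 4920 in fish 2 and fish 3, 352.5 and 322.3 in fish 4 and fish 6, and 137.3 to 237.6 in segment 1. In segment 3 it was 11464 in fish 2 and 2691 in fish 6, in segment 2 it was 1488 in fish 6, and 5 of the 26 models (BMP15, GDF9, NOBOX, piwil1 and dazl) had no read in segment 1.

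Of the 12 gene models, 10 reached a value of 10 in at least 6 libraries and were tested, and DUOX2 and GPX2 did not. A gene model is called when its adjusted p is under 0.05 in a limma fit to log2(value + 1) over all 19515 gene models that passed. Among the 4 segments, 7 of the 10 were called by the moderated F test, against 27.5% of all gene models tested. The exceptions were cat LABE_00005770, sod1 and Sod3. With fish as a block, 8 of the 10 were called, Sod3 being the addition, and the share of all gene models with the block is not given here. In bulk tissue, fewer cells of a type and less RNA per cell cannot be told apart.

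Segment 4 differed from segment 1 in 8 of the 10 gene models, of which 3 were higher and 5 lower, while 31.9% of all gene models were called. Over all gene models, 17.1% were called higher and 14.8% lower. The higher members were both extracellular superoxide dismutase models, SOD3 and Sod3, and 1 of the 2 glutathione peroxidase 1 models. The lower members were the main catalase model, the other glutathione peroxidase 1 model, both glutathione peroxidase 4 models and the mitochondrial SOD2. The median log2 fold change of the 10 was -0.27, beside 0.04 over all gene models. Without fish 2 the number of members called was also 8, beside 6383 of all 19515 gene models. Without fish 1 and fish 5 it was 6, beside 4027 of all. Without the segment 4 libraries of fish 1, 2, 3 and 5, which leaves 2 in segment 4, it was 4, beside 3896 of all. These 4 were cat LABE_00005762, Gpx1 and both GPX4 models. These settings without libraries were chosen after the data were seen, apart from the removal of fish 2.

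**Figure D1:**
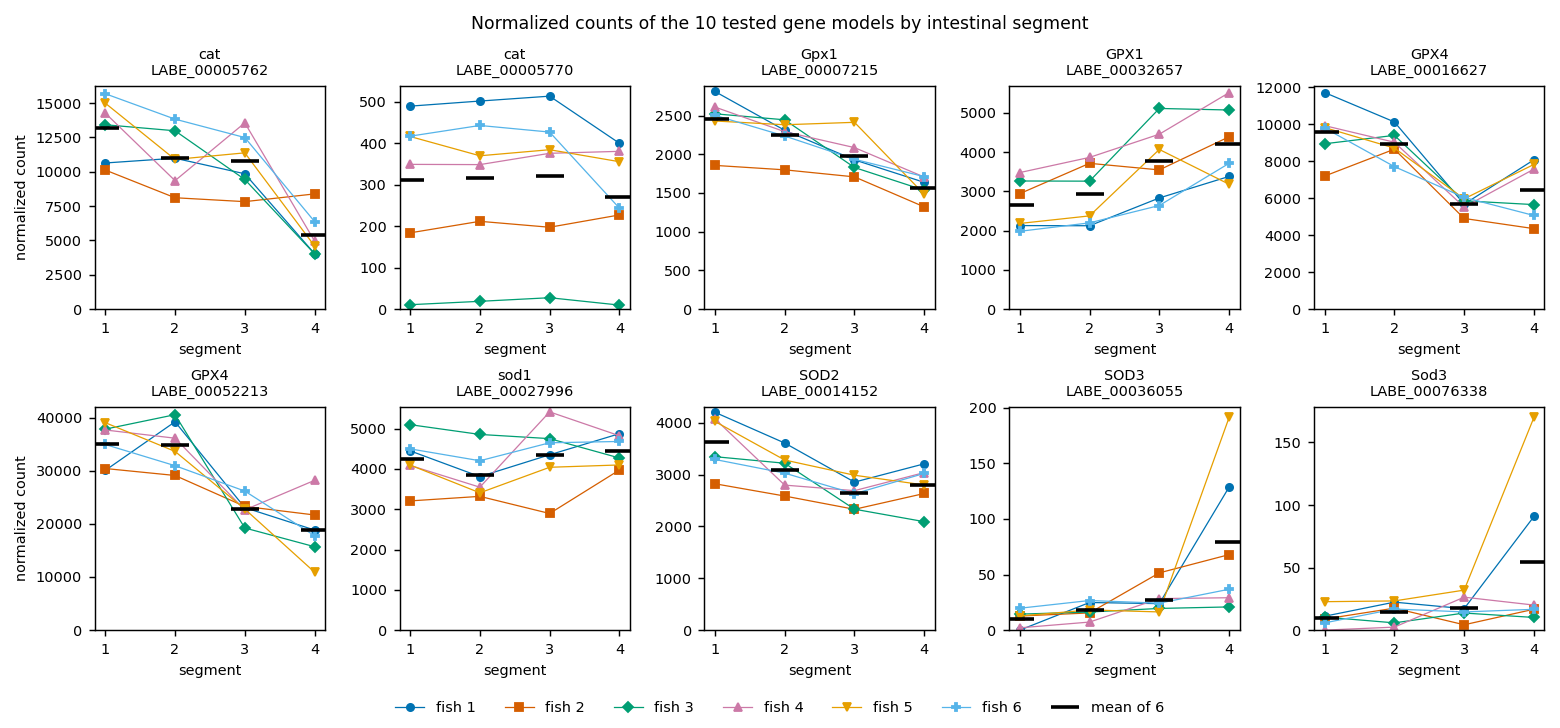
Normalized counts (vertical axes, linear) of the 10 tested gene models in segments 1 to 4 (horizontal axes), with 1 line and symbol for each of the 6 fish and a black bar for the mean. The main catalase model lies between 10128 and 15686 in segment 1 and between 4018.6 and 8387.3 in segment 4, and the 2 SOD3 models are highest in segment 4 of fish 1 and fish 5.

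**Figure D2:**
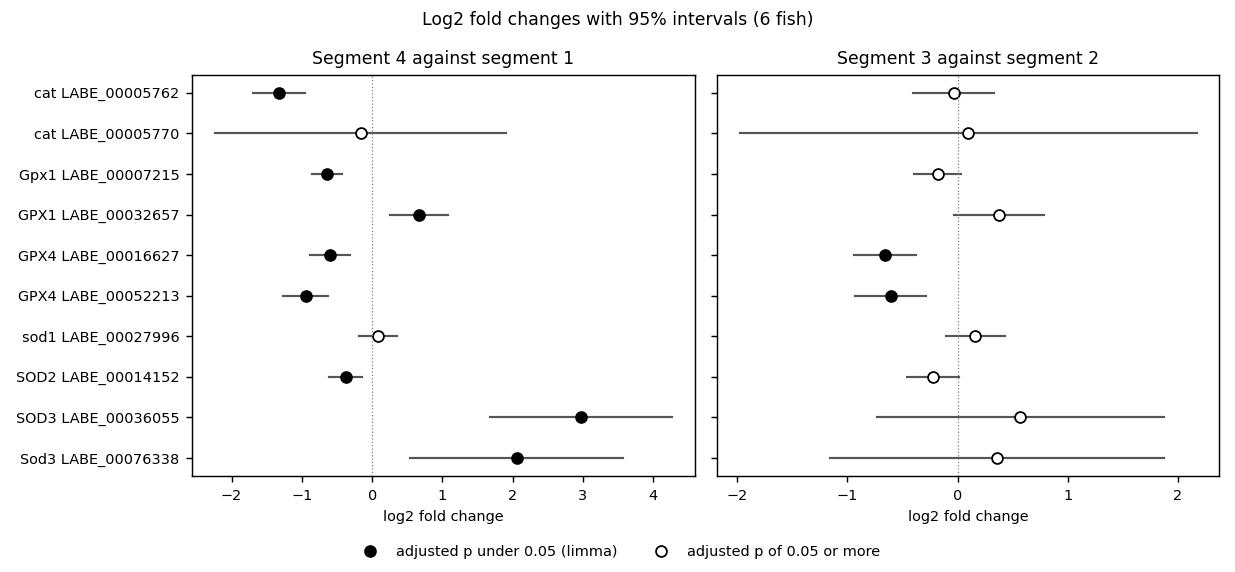
Log2 fold changes (horizontal axes) of the 10 tested gene models in segment 4 against segment 1 (left) and in segment 3 against segment 2 (right), with 95% intervals from limma over 6 fish. Filled circles mark an adjusted p under 0.05, which 8 models reached on the left and the 2 GPX4 models reached on the right.

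The dual oxidase was close to the limit of detection. DUOX2 (LABE_00005532), the dual oxidase of epithelia, had 7 reads in all 24 libraries together. In segment 4 it had 6 reads (exact 95% Poisson interval 2.20 to 13.1), at normalized counts of 0.946 in fish 1 and 3.14 in fish 5, the 2 fish with the highest egg coat sums. Segment 3 held 1 read, in fish 3, and segments 2 and 1 held 0 reads (exact interval up to 3.69 in each), out of 115412430 and 115102445. Such intervals and limits cover counting error only. Its maturation partner DUOXA2 (LABE_00005535) had 5 reads, all in segment 4 of fish 1. No gene model carried the name duox1 or nox1. A RefSeq annotation of the species (assembly fLabBer1.1) lists duox2 and nox1 under their own symbols and no duox1, but none of its identifiers matched those of the table, so the nox1 gene was not analysed here.

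Catalase fell toward the hind-gut. The abundant model, cat LABE_00005762, had normalized counts of 4030.5, 8387.3, 4018.6, 4952.8, 4591.6 and 6373.4 in segment 4 of fish 1 to 6, against 10640, 10128, 13425, 14276, 15001 and 15686 in segment 1. The groups did not overlap, and the model was lower in segment 4 in 6 of 6 fish. The means along the gut were 13193 ± 2310, 11028 ± 2150, 10759 ± 2120 and 5392 ± 1700 in segments 1 to 4 (SD, n = 6). Against segment 1, segment 4 had a log2 fold change of -1.32 (SE 0.18, limma adjusted p = 3.27e-06), and against segment 3 one of -1.03 (SE 0.18, adjusted p = 0.000214). The step between segments 3 and 4 was seen in 5 of 6 fish. In fish 2 the hind-gut value of 8387.3 was above the 7824.3 of its segment 3. Segments 1 to 3 were not separated by the test, with fold changes on the log2 scale of -0.04 for segment 3 against segment 2 and -0.26 for segment 2 against segment 1 (limma adjusted p = 0.991 and 0.86). The interval of the difference between segments 3 and 2 ran from -0.40 to 0.33. In segment 3 against segment 1 the model was lower in 6 of 6 fish (log2 fold change -0.30, limma adjusted p = 0.309, and 0.218 with the block), and in segment 2 against segment 1 in 5 of 6 fish.

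Enterocyte markers fell along with catalase. Of 18 tested models of fabp2, vil1, cdh17, apoa4, apob and anpep, 13 were called lower and 0 higher in the hind-gut than in segment 1. Over all gene models, 14.8% were called lower and 17.1% higher. The summed normalized count of these markers was 155222 to 343532 in segment 4, with fish 2 the highest, against 629035 to 1033899 in segment 1. The largest part of the segment 1 sum was APOB LABE_00031499, with means of 495800 in segment 1 and 47110 in segment 4 (log2 fold change -3.62). Other abundant models fell less, such as VIL1 (-1.80), CDH17 (-0.89) and ANPEP LABE_00049656 (-0.68). ANPEP LABE_00036801 was not called (-0.42, limma adjusted p = 0.0546). None of the enterocyte models was at 0 in any segment, and the part of the enterocyte share in the catalase result was not tested. The gene models whose pattern was most like that of cat LABE_00005762 over the 24 libraries were dgat2 (Pearson r = 0.95), ABCG5 (0.95), Ces2e (0.94), BCO1 (0.94) and MEP1A (0.94). In mammals, dgat2 makes triglycerides, ABCG5 exports sterols, BCO1 cleaves beta-carotene and MEP1A is a brush border protease. All 5 were lower in segment 4 than in segment 1, with log2 fold changes between -4.54 and -1.88. Their choice by correlation over the same libraries favours that direction.

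A second model named catalase, LABE_00005770, differed between fish more than along the gut, and no comparison of segments called it with or without the block. Fish 3 had normalized counts of 10.5, 18.6, 27.3 and 9.55 in segments 1 to 4, while the other 5 fish had between 183.9 and 513.9. The fish took 97.1% of the sum of squares of its log2 values and the segment 0.839%. In the hind-gut against segment 1 its log2 fold change was -0.16 (SE 1.00, limma adjusted p = 0.929), with an interval of -2.24 to 1.91, and with fish as a block the interval was -0.52 to 0.19 (SE 0.17, adjusted p = 0.475). In the same 4 libraries of fish 3, the abundant model cat LABE_00005762 had 13425, 12987, 9437.7 and 4018.6 in segments 1 to 4, within the range of the other fish in segments 1 to 3 and just below it in segment 4. RefSeq lists 1 gene with the symbol cat, and whether reads are shared between the models named catalase was not tested.

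Glutathione peroxidase 1, the cytosolic selenoenzyme that reduces hydrogen peroxide, is represented by a pair of models that moved in opposite directions. Gpx1 (LABE_00007215) had 1636.8, 1319.6, 1534.3, 1705.0, 1482.2 and 1710.2 in segment 4 of fish 1 to 6, against 2810.5, 1855.7, 2522.1, 2609.4, 2429.4 and 2502.6 in segment 1. Every hind-gut value was below every value of segment 1. The log2 fold change was -0.64 (SE 0.10, limma adjusted p = 2.85e-05). The means of segments 1 to 4 were 2455 ± 321, 2243 ± 230, 1983 ± 245 and 1565 ± 151 (SD, n = 6).

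For Gpx1 the call between segments 4 and 3 (log2 fold change -0.34, limma adjusted p = 0.0306) was lost when any 1 of fish 1, 3, 4, 5 or 6 was left out, with adjusted p between 0.0648 and 0.204. It was lower in segment 4 than in segment 3 in 6 of 6 fish. For segment 3 against segment 1 the log2 fold change was -0.31 (adjusted p = 0.0466). That call, made without the block, was lost without fish 1, 3, 4 or 6 (adjusted p between 0.13 and 0.182). It was also lost without fish 1 and fish 5 (0.172), with quantile normalization (0.21), TMM rescaling (0.0558) or no filter (0.0639). The same held with segments 3 and 1 alone (0.0938), without the segment 4 libraries of fish 1, 2, 3 and 5 (0.0501) and in edgeR on recovered reads (0.0555). These settings did not use the block. With all 6 fish and fish as a block, the limma adjusted p of Gpx1 was 0.00171 for segment 4 against segment 3. For segment 3 against segment 1 it was 0.00382.

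GPX1 (LABE_00032657) had 3379.5, 4389.6, 5072.4, 5514.7, 3180.2 and 3713.9 in segment 4, against 2127.0, 2940.2, 3263.3, 3477.8, 2181.1 and 1981.0 in segment 1. The groups overlapped, yet each fish was higher in its own hind-gut. Fish 3 and fish 4 were high and fish 1 was low in most segments, and the fish took 50.9% of the sum of squares of its log2 values. The log2 fold change was 0.67 (SE 0.20, limma adjusted p = 0.0117). With fish as a block, GPX1 was also higher in segment 4 than in segment 2 (log2 fold change 0.54, adjusted p = 0.00016, beside 0.0553 without the block), in segment 3 than in segment 1 (0.50, adjusted p = 0.000618 beside 0.0987) and in segment 3 than in segment 2 (0.37, adjusted p = 0.0211 beside 0.499). Without the segment 4 libraries of fish 1, 2, 3 and 5, its log2 fold change in segment 4 against segment 1 was 0.80 with an adjusted p of 0.0539.

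The ratio of GPX1 to Gpx1 within a library does not depend on the size factor. In segments 1 to 4 its median was 1.1, 1.17, 1.88 and 2.7. All 6 ratios of segment 4 (2.06 to 3.33) were above all 6 of segment 1 (0.757 to 1.58). In fish 4 and fish 6, the fish with few egg coat reads in the hind-gut, it was 3.23 and 2.17 in segment 4, against 1.33 and 0.792 in segment 1. RefSeq lists gpx1a and gpx1b for the species, and which of the models is which was not worked out here.

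**Figure D3:**
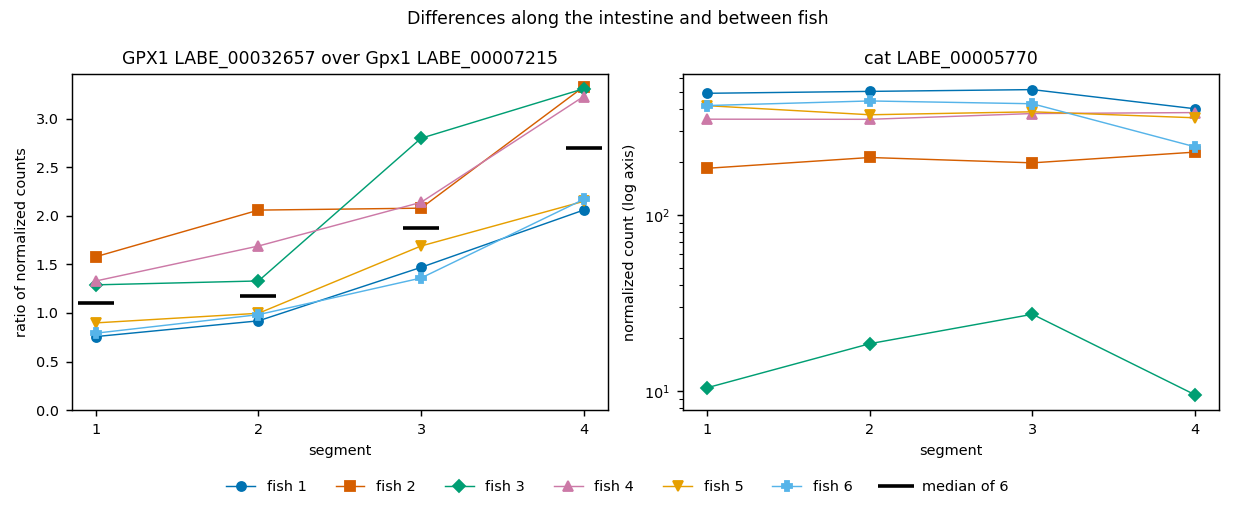
Left, the ratio of GPX1 to Gpx1 normalized counts within each library (linear axis) in segments 1 to 4, with 1 line for each of 6 fish and black bars for the medians of 1.1, 1.17, 1.88 and 2.7. Right, normalized counts of cat LABE_00005770 (log axis), where fish 3 stays between 9.55 and 27.3 and the other 5 fish between 183.9 and 513.9.

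Glutathione peroxidase 4 reduces lipid peroxides within membranes, and both of its models stepped down between segments 2 and 3. This comparison called 2 of the 10 members, both lower, while 2.08% of all gene models were called, 1.01% higher and 1.07% lower. GPX4 LABE_00052213 had 23049, 23278, 19224, 22625, 22785 and 26166 in segment 3 of fish 1 to 6, against 39209, 29103, 40541, 36117, 33635 and 30944 in segment 2. GPX4 LABE_00016627 had 5672.0, 4897.9, 5851.1, 5514.6, 5959.6 and 6035.7 in segment 3, against 10117, 8643.0, 9390.8, 9019.9, 8702.5 and 7701.4 in segment 2. For neither model did the groups overlap, and all 6 fish were lower in segment 3.

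The log2 fold changes of segment 3 against segment 2 were -0.61 (SE 0.16, limma adjusted p = 0.0403) for GPX4 LABE_00052213 and -0.66 (SE 0.14, adjusted p = 0.0102) for GPX4 LABE_00016627. The number of all gene models called in this comparison varied with the fish included. LABE_00052213 was no longer called when fish 1, 3, 4, 5 or 6 was left out (adjusted p between 0.0587 and 0.309), and LABE_00016627 when fish 3 or 4 was (0.0927 and 0.0573). Their log2 fold changes under those removals ran from -0.68 to -0.51 for LABE_00052213 and were -0.65 and -0.65 for LABE_00016627. With fish as a block 3 members were called, GPX1 being the addition and higher, beside 1063 of all 19515 gene models.

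Along the whole gut, GPX4 LABE_00052213 had means of 34987 ± 3920, 34925 ± 4530, 22854 ± 2210 and 18844 ± 5820 in segments 1 to 4, and GPX4 LABE_00016627 had 9559 ± 1470, 8929 ± 809, 5655 ± 417 and 6418 ± 1600 (SD, n = 6). In segment 4 against segment 1, the log2 fold changes were -0.94 for LABE_00052213 (SE 0.16, limma adjusted p = 4.97e-05) and -0.60 for LABE_00016627 (SE 0.14, adjusted p = 0.00135). Both were lower in 6 of 6 fish. Between segments 4 and 3 neither was called. LABE_00016627 was higher in segment 4 in 3 fish (8069.4, 7565.8 and 7820.1 in fish 1, 4 and 5, against 5672.0, 5514.6 and 5959.6 in segment 3) and lower in the other 3. The within-library ratio of LABE_00016627 to LABE_00052213 was 0.21 to 0.304 in segment 3, and in segment 4 it ranged from 0.201 in fish 2 to 0.717 in fish 5.

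GPX2 (LABE_00008996), the glutathione peroxidase of the gut epithelium in mammals, was near the limit of detection. It had 48 reads in all, with 17, 16, 14 and 1 reads in segments 1 to 4. The exact 95% Poisson interval was 0.0253 to 5.57 for the read of segment 4, against 9.90 to 27.2 for the reads of segment 1. A read was found in 1 of 6 hind-gut libraries, against 5 of 6 libraries of segment 1, and 11.6 in segment 2 of fish 3 was its highest normalized count. It did not pass the filter. In the fit with no filter its log2 fold change in segment 4 against segment 1 was -1.64 (SE 0.60, limma adjusted p = 0.0499), which made 9 members called there, and DUOX2 had 0.50 (adjusted p = 0.208). That fit called 6156 of all 27392 gene models in the same comparison.

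Of the superoxide dismutases, the secreted models were higher, the mitochondrial one lower and the cytosolic one not called in the hind-gut against segment 1. The cytosolic copper-zinc enzyme sod1 (LABE_00027996) had means of 4238 ± 626, 3856 ± 584, 4349 ± 848 and 4452 ± 388 in segments 1 to 4 (SD, n = 6). Its log2 fold change in segment 4 against segment 1 was 0.08 (SE 0.13, interval -0.19 to 0.35, limma adjusted p = 0.694). Fish took 58.4% of its sum of squares and segments 12.9%.

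SOD2 (LABE_00014152), the mitochondrial manganese enzyme, was lower in segments 3 and 4 than in segment 1. It had 3208.3, 2635.8, 2092.2, 3039.2, 2800.1 and 3022.9 in segment 4 of fish 1 to 6, against 4202.2, 2823.5, 3345.8, 4075.7, 4025.6 and 3292.0 in segment 1. Every fish was lower, by 22.8% in the mean, although the groups overlapped. The log2 fold change was -0.37 (SE 0.11, limma adjusted p = 0.014, and 0.00112 with fish as a block). Quantile normalization gave an adjusted p of 0.143, leaving out fish 3 or fish 5 gave 0.0544 and 0.0617, and leaving out the segment 4 libraries of fish 1, 2, 3 and 5 gave 0.285. In segment 3 against segment 1 it was -0.45 (SE 0.11, adjusted p = 0.0084), also lower in 6 of 6 fish.

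SOD3, the enzyme that vertebrates secrete to the outside of cells, was higher in the hind-gut than in segment 1, from low levels. SOD3 (LABE_00036055) had 128.7, 67.9, 20.9, 29.1, 191.3 and 36.8 in segment 4 of fish 1 to 6, against 0, 12.7, 14.4, 2.07, 12.7 and 19.7 in segment 1. The groups did not overlap, and 611 reads of segment 4 stand against 54 of segment 1. The log2 fold change on the log2(value + 1) scale was 2.97 (SE 0.63, limma adjusted p = 0.000736), the largest rise among the members. The means were 10.3 ± 7.62, 18.1 ± 7.02, 27.3 ± 12.6 and 79.1 ± 67.6 in segments 1 to 4 (SD, n = 6). With fish as a block it was also called higher in segment 4 than in segment 2 (1.73, adjusted p = 0.0382 beside 0.0535) and in segment 3 than in segment 1 (1.81, adjusted p = 0.0378 beside 0.0562).

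Sod3 (LABE_00076338) had 90.8, 16.7, 10.1, 20.04, 170 and 16.6 in segment 4, against 11.1, 8.88, 10.5, 0, 22.7 and 5.80 in segment 1. Fish 1 and fish 5 stood far above the rest, and the other 4 hind-gut values lay within the range of segment 1. Its log2 fold change was 2.06 (SE 0.73, limma adjusted p = 0.0343, and 0.00639 with fish as a block), with 5 of 6 fish higher. The call was lost without fish 1, 4, 5 or 6 (adjusted p of 0.0628 to 0.102). Between segments 4 and 3 Sod3 was not called (log2 fold change 0.98, limma adjusted p = 0.486, and 0.26 with fish as a block).

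The 2 hind-gut libraries with the highest values of both SOD3 models, those of fish 1 and fish 5, were also those with the highest egg coat and germ cell sums. The hind-gut of fish 3, at a sum of 4920, held the lowest values of both models in segment 4, 20.9 and 10.1. Segment 3 of fish 2, at a sum of 11464, held 51.5 of SOD3, the highest of its segment, and 4.29 of Sod3, the lowest. Whether the SOD3 models follow the egg coat genes was not tested. Without fish 1 and fish 5, SOD3 had a log2 fold change of 1.75 in segment 4 against segment 1 (limma adjusted p = 0.041) and Sod3 one of 1.64 (adjusted p = 0.15). With only the hind-guts of fish 4 and fish 6 kept in segment 4, these were 2.16 (adjusted p = 0.0767) and 1.31 (adjusted p = 0.376). In fish 4 and fish 6 themselves, SOD3 had 29.1 and 36.8 in segment 4, against 2.07 and 19.7 in segment 1. The summed liver markers fga, fgb, fgg, tf and ahsg were 1348 and 2643 in segment 4 of fish 1 and fish 5, 193.5 to 289.5 in the hind-gut of the other 4 fish and 129.6 to 236.3 in segment 1. Most of the highest sum was transferrin (tf, up to 2559), while Fgg was lower in segment 4 than in segment 1 (log2 fold change -2.94, limma adjusted p = 0.000956) and FGB was at 0 there, and of the 4 tested liver models 1 was higher and 1 lower.

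**Figure D4:**
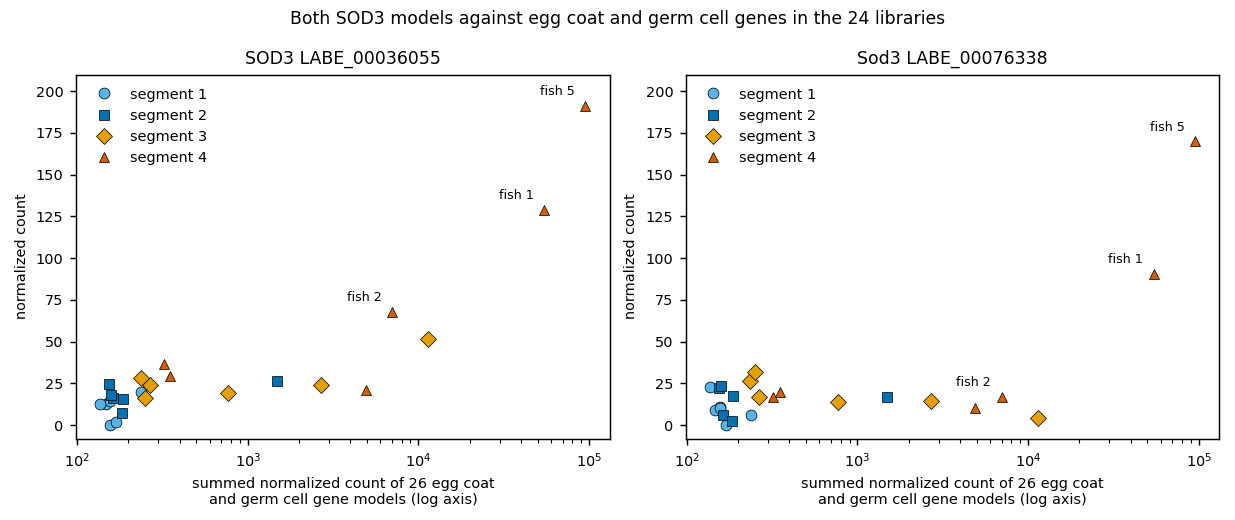
Normalized counts (vertical axes, linear) of SOD3 and Sod3 against the summed normalized count of the 26 egg coat and germ cell gene models (horizontal axes, log) in the 24 libraries, with a symbol for each segment. The segment 4 libraries of fish 1 and fish 5, at sums of 54611 and 95407, hold the highest value of both models, and fish 2, at 7027, holds the third highest value of SOD3. Segment 4 of fish 3, at 4920, holds the lowest hind-gut value of both models.

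The gene models most like SOD3 over the 24 libraries were TOP1 (Pearson r = 0.91), RNF26 (0.88), GAS2L3 (0.87), ASXL1 (0.86) and Pacs1 (0.86), and all 5 were called higher in segment 4 than in segment 1. Picking them by correlation over the same libraries favours that direction, so it is not a separate result. TOP1 is the DNA topoisomerase that relaxes supercoils during transcription and replication.

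In segment 4 against segment 3, 2 of the 10 members were called, cat LABE_00005762 and Gpx1, both lower, while 11.0% of all gene models were called, 5.21% higher and 5.82% lower. In segment 2 against segment 1, 0 of 10 were called by limma, edgeR or DESeq2, 0 had an unadjusted p under 0.05, and 0.676% of all gene models were called, 0.477% higher and 0.200% lower. In segment 3 against segment 1, 4 were called, all lower (Gpx1, SOD2 and both GPX4 models), against 13.9% of all gene models (7.13% higher and 6.81% lower), and 6 were with fish as a block (2 higher, GPX1 and SOD3). In segment 4 against segment 2, 4 were called, all lower (cat LABE_00005762, Gpx1 and both GPX4 models), against 20.5% of all gene models (9.72% higher and 10.8% lower), and 6 were with the block, with the same additions. Of the calls in segment 3 against segment 1, that of GPX4 LABE_00052213 was lost without fish 3 (adjusted p = 0.066) and with quantile normalization (0.369), and that of SOD2 without fish 1 and fish 5 (0.0688) and with quantile normalization (0.0936). In segment 4 against segment 2, GPX4 LABE_00016627 was not called without fish 3 (limma adjusted p = 0.0551). For segment 3 against segment 1 and segment 4 against segment 2, the shares of all gene models with the block are not given here. These comparisons share libraries.

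Other genes of the pathway are given by lists of names, with up to 4 called models each, and 31.9% of all gene models were called in the comparison of segments 4 and 1. Of 15 tested NADPH oxidases and partners, 6 were higher and 2 lower in segment 4 than in segment 1 (53.3% called). RAC2, the small GTPase of the phagocyte oxidase, was 6994 ± 1080 in segment 4, against 5169 ± 211 in segment 1 (SD, n = 6; log2 fold change 0.42, limma adjusted p = 0.00105). CYBA, the membrane subunit p22phox, was 4978 ± 839 against 3251 ± 866 (0.64, adjusted p = 0.0212). Of the catalytic subunit of phagocytes, CYBB (LABE_00044016) was higher (0.89, adjusted p = 0.000403) and Cybb (LABE_00038894) lower (-1.59, adjusted p = 0.0447). Leukocyte markers rose in the same comparison: all 4 tested models of ptprc, coro1a and cd74 were higher, with sums of 146749 to 200889 in segment 4, against 114269 to 126710 in segment 1, and none was at 0. Of 8 phagocyte markers, a list that includes cybb and ncf1, 2 were higher and 1 lower. Their part in the oxidase genes was not tested. Against segment 3, 2 of the 15 oxidase models were higher and 0 lower in segment 4 (13.3% called), beside 11.0% of all gene models. Of the 4 leukocyte models, 0 were called there. In segment 3, RAC2 had 7763 ± 613 and CYBB LABE_00044016 had 3771 ± 837, above their segment 4 means of 6994 and 3421. CYBA had 4038 ± 1060 in segment 3, below its segment 4 mean of 4978.

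Of 15 tested peroxiredoxin and thioredoxin models, 2 were higher and 4 lower in segment 4 than in segment 1, a share of 40% beside the 31.9% of all gene models. PRDX6, which reduces peroxides of phospholipids, was 8863 ± 2650 against 5079 ± 1160 (SD, n = 6; log2 fold change 0.78, limma adjusted p = 0.0188), and Prdx4, the peroxiredoxin of the secretory pathway, was higher by 0.57 (adjusted p = 0.00516). PRDX1 (LABE_00031139) was lower by a log2 fold change of -0.47 (adjusted p = 0.000229), and the thioredoxin reductase TXNRD3 by -0.54 (adjusted p = 0.0323). The other PRDX1 model, LABE_00004098, was not called, at 10020 ± 4600 in segment 4 against 8096 ± 1150 in segment 1 (0.20, limma adjusted p = 0.63). Without fish 1 and fish 5, 1 of the 15 models was higher and 1 lower, beside 4027 of all 19515 gene models called.

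Of 13 tested models for the synthesis and recycling of glutathione, 1 was higher and 6 lower (53.8% called). Ggt1 (LABE_00008724), which splits extracellular glutathione, was 10160 ± 2940 in segment 4, against 5659 ± 1310 in segment 1 (log2 fold change 0.82, limma adjusted p = 0.00392). The rarer Ggt1 model LABE_00011199 was 52.5 ± 20.8 against 96.8 ± 41 (-0.86, limma adjusted p = 0.0651, and 0.00818 with fish as a block). Gclm, a subunit of the rate-limiting enzyme of glutathione synthesis, was 3970 ± 1460 against 5942 ± 1320 (-0.64, adjusted p = 0.0237). The glutathione-degrading chac1 (-0.51, adjusted p = 0.0389) and the NADPH-producing IDH1 LABE_00023947 (-0.76, adjusted p = 0.000198) were lower too. Of the same 13 models, 5 were higher and 1 lower in the hind-gut when set against segment 3 (46.2% called). Over all gene models, 11.0% were called there, 5.21% higher and 5.82% lower. Without fish 1 and fish 5, the 13 were 1 higher and 2 lower against segment 1, and 3 higher and 0 lower against segment 3. In that setting, 4027 of all 19515 gene models were called against segment 1 and 1133 against segment 3.

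Glutathione peroxidases 1, 2 and 4 contain selenocysteine. Of 9 tested models for the synthesis of selenoproteins, 2 were higher and 1 lower in segment 4 than in segment 1, and this share of 33.3% was close to the 31.9% of all gene models. SEPHS2 and sephs1, the selenophosphate synthetase and its paralog, were higher by 0.59 and 0.46 on the log2 scale (adjusted p = 0.00563 and 0.0332 in limma), and the selenocysteine lyase SCLY, at 48.1 ± 9.84 against 76.7 ± 35.1 (SD, n = 6), was lower by -0.59 (adjusted p = 0.0421). Against segment 3, 0 of 9 passed in limma (0 without fish 1 and fish 5 as well), and 2 passed with fish as a block. Over all 19515 gene models, 2151 were called against segment 3, 3579 with the block and 1133 without fish 1 and fish 5. Without fish 1 and fish 5, 1 of the 9 was higher and 0 lower against segment 1, beside 4027 of all gene models called. The remaining named glutathione peroxidases, GPX5 and GPX7, were not called in segment 4 against segment 1 (0.24 and 0.02, adjusted p = 0.367 and 0.969).

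Of 21 tested models of other makers and users of hydrogen peroxide, 4 were higher and 5 lower in segment 4 than in segment 1 (42.9% called). The eosinophil peroxidase model EPX (LABE_00008768) was 100800 ± 29300 in segment 4, against 38220 ± 26100 in segment 1 (SD, n = 6; log2 fold change 1.71, limma adjusted p = 0.0264). Among the lower models were peroxisomal oxidases, enzymes that release hydrogen peroxide beside catalase. ACOX3, which oxidizes branched-chain acyl-CoA, was 2280 ± 381 in segment 4, against 4302 ± 673 in segment 1 (-0.92, adjusted p = 0.000188). The D-amino acid oxidase Dao was 3194 ± 478 in segment 4, against 8005 ± 1460 in segment 1 (-1.32, adjusted p = 1.54e-06).

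Nrf2 is the transcription factor that switches on antioxidant genes, and Keap1 holds it back. Of 9 tested models of this pathway, 1 was higher and 3 lower in segment 4 than in segment 1 (44.4% called). The Nrf2 gene itself, NFE2L2, was 2327 ± 313 against 3628 ± 558 (SD, n = 6; log2 fold change -0.64, limma adjusted p = 0.000987). The Nrf2 target Nqo1 (LABE_00062471), a quinone reductase, was 1242 ± 419 against 4770 ± 980 (-1.97, adjusted p = 3.68e-07). A second model, Nqo1 LABE_00085405, did not pass the filter, and had 0 to 259.1 in segment 4, against 0 to 2.62 in segment 1. The KEAP1 models parted, with LABE_00052449 at 1686 ± 526 against 574 ± 144 (1.53, adjusted p = 9.52e-06) and LABE_00043032 at 178.5 ± 68.6 against 504.4 ± 109 (-1.53, adjusted p = 1.05e-06).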

How the data were processed

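RNA was extracted from 4 intestinal segments of 6 fish, and libraries were made with a kit that does not mark strand. The authors trimmed reads with cutadapt, checked them with FastQC 0.9.2, aligned them with TopHat2 to their own genome assembly and counted them with featureCounts of Subread. The sources used here do not give how reads shared by gene models were counted. The deposited signal is the count per gene model divided by a DESeq2 size factor, written to 5 significant digits. Between 93.7% and 99.2% of values per library came out whole (within 0.05) when divided by the value of 1 read, and these recovered reads served for depth, edgeR and DESeq2. The methods name fewer fish than the labels, and the labels were followed. One line without a gene model was left out.

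On the log2(value + 1) scale, limma 3.58.1 was run in R 4.3.3 (trended variance, Benjamini-Hochberg adjustment), 4 segments as groups, 24 libraries in 1 fit, and a minimum of 10 in 6 libraries. Same-numbered libraries come from the same fish. After removal of segment means they correlated at 0.435 on average, against -0.0864 for libraries of other fish and segments. Alternatives were pseudocounts of 0.5 and 5, no filter, TMM and quantile scaling, edgeR 4.0.16, DESeq2 1.42.0, fish as a block, the 2 segments alone and each fish left out. Fish are the replicates. The limma fit without the block was tested on simulated data for segment 4 against segment 1, with libraries drawn independently of fish. The fits of edgeR, DESeq2 and the block were not. Named genes are every member, up to 4 called models per list with the highest mean, and the 5 models most like the largest riser and faller. One gene that this rule names is not reported here. DUOXA2, SOD5, Aqp8, NOXO1 and the egg coat list were chosen after their values were seen. Members and lists were chosen with earlier results of these data known.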

Additional observations from a re-analysis of the deposited data

Results flagged for a closer look

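In 6 of the 40 groups of 6 fish formed by the 10 tested gene models and 4 segments, a single fish lay far from the other 5, where chance gives about 1 in 20 for independent groups. The 6 belong to 2 gene models and repeat 1 fish each over segments, so they are not independent of each other. For cat LABE_00005770, fish 3 was far below the others in each segment, with 10.5 in segment 1 (others 183.9 to 489.8), 18.6 in segment 2 (211.8 to 502.1), 27.3 in segment 3 (197.5 to 513.9) and 9.55 in segment 4 (227.2 to 400.2). For Gpx1 LABE_00007215, fish 2 was below the others in segment 1, at 1855.7 (others 2429.4 to 2810.5), and in segment 2, at 1798.4 (others 2235.3 to 2444.6).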

How the results depend on the processing

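Over the alternatives planned, 295 values of members kept their direction and their side of the threshold and 35 lost a call, and none reversed. These values cover segment 4 against segment 1 and the calls of the main fit, so calls gained in other comparisons are not counted. In segment 4 against segment 2, edgeR called 5 members and DESeq2 7, beside 4 in the main fit. The shares of all gene models that edgeR and DESeq2 called in that comparison are not given here. In segment 4 against segment 3, DESeq2 called 3 beside 2, while it called 2706 of all gene models beside 2151. In segment 3 against segment 1 edgeR called 3 beside 4, and its share of all gene models there is not given. In the settings added after the data were seen, 29 kept both, 14 lost a call and 1 reversed: without the segment 4 libraries of fish 1, 2, 3 and 5, cat LABE_00005770 in segment 4 against segment 1 stood at 0.61, where it was not called in any setting. That setting takes out the hind-gut library of fish 3, at 9.55 for this model, and keeps its segment 1 library, at 10.5. It leaves 2 hind-gut libraries, and called 4 members in the hind-gut against segment 1, with 1 called against segment 3. Without fish 1 and fish 5, 4 members differed among the segments by the F test, and the share of all gene models in that test is not given here. In that setting, 1 member was called between segments 4 and 3 and 0 between segments 3 and 2. Leaving out 1 fish gave 1 to 2 members called between segments 4 and 3, and 0 to 2 between segments 3 and 2, where no filter and quantile scaling gave 1 each. For all gene models, leaving out 1 fish gave 1536 to 2941 between segments 4 and 3 and 70 to 600 between segments 3 and 2. No filter and quantile scaling gave 334 and 412 between segments 3 and 2. Over all gene models, the block moved the count from 2151 to 3579 between segments 4 and 3, from 406 to 1063 between segments 3 and 2 and from 132 to 374 between segments 2 and 1. DESeq2 gave 679 between segments 3 and 2, against 283 for the pair in front. The number between segments 3 and 2 was 70 without fish 3 and 0 without fish 1 and fish 5, and that between segments 2 and 1 was 41 without fish 4, 280 without fish 2, 81 with these segments alone and 14 without fish 1 and fish 5. Without fish 1 and fish 5 it was 4027 between segments 4 and 1 and 1133 between segments 4 and 3, and with 2 hind-gut libraries 3896 between segments 4 and 1. The cause of these changes was not tested. Blocked values of members are given beside the results they change, and the block changed no other call of a member. Between segments 4 and 1 the block called 8150 of all gene models beside 6221, and counts of some lists moved. NADPH oxidases and partners went from 6 higher and 2 lower to 8 and 2. Glutathione models went from 1 and 6 to 1 and 7, and Nrf2 models from 1 and 3 to 2 and 4. Phagocyte markers went from 2 and 1 to 4 and 1, and enterocyte markers from 13 to 15 lower. Depth limits what can be said of DUOX2 and GPX2, with 7 and 48 reads.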

Other observations

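A gene model outside the names used, SOD5 (LABE_00031271), was lower in the hind-gut than in segment 3. It had 3871.5, 4672.5, 2766.0, 3313.4, 2156.5 and 2264.6 in segment 4 of fish 1 to 6, against 9112.1, 6945.4, 6264.3, 6137.8, 9855.6 and 6431.3 in segment 3, with no overlap. The log2 fold change was -1.26 (SE 0.29, limma adjusted p = 0.00321), while segment 3 against segment 1 gave 0.04 (adjusted p = 0.962).

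Aqp8 (LABE_00033297), a channel that in mammals lets hydrogen peroxide cross membranes beside water, had 2538 reads in segment 4, against 8 in segment 1. Its normalized counts were 239.4 to 407.6 in segment 4, against 0 to 2.62 in segment 1, and they lay at 4.32 to 80.8 in segment 2 and 7.51 to 317.2 in segment 3. The low value of segment 3 was that of fish 2. A second model named Aqp8, LABE_00020898, was 77.91 ± 15.5 in segment 4, against 87.35 ± 31 in segment 1 (SD). It was not called there (log2 fold change -0.10, limma adjusted p = 0.818).

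Of the NADPH oxidase organizer NOXO1, the abundant model LABE_00033263 had 7636.1, 7173.5, 15910, 10460, 4928.4 and 9991.8 in segment 4 of fish 1 to 6. It had 32463 in segment 3 of fish 2, against 271.6 to 2550.0 in segment 3 of the other fish. The rarer model LABE_00020934 had 62.2 in the same library, against 0.780 to 8.50. In segment 4 the rarer model had 23.4 to 436.2, highest in fish 1 and fish 5, against 3.64 to 24.7 in segment 1. It was called higher in that comparison (log2 fold change 3.70, limma adjusted p = 0.000313). The abundant model had 1161.5 to 5653.1 in segment 1 and was not called in segment 4 against segment 1 (1.88, limma adjusted p = 0.0737).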
